A study of Mus musculus with 7 samples.

Results

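The oligosaccharyltransferase is the enzyme of the endoplasmic reticulum (ER) membrane that moves a preassembled sugar chain from its lipid carrier onto asparagines of proteins entering the secretory pathway. Its 9 genes described here, Stt3a, Stt3b, Rpn1, Rpn2, Ddost, Dad1, Ostc, Krtcap2 and Tusc3, were taken by symbol from the deposited table. Each had exactly 1 row whose probe set the platform table pairs with a single gene symbol, so 9 of 9 were measured, out of 19938 genes with such a row. Epididymal white adipose tissue, the visceral fat of male mice that lies against the epididymis and testis, had been profiled in 3 aP2-XBP1 transgenic and 4 wild type C57Bl/6J males of 17 weeks on chow. The aP2 (Fabp4) promoter of adipocytes drives the transgene. XBP1 is one of the transcription factors through which the unfolded protein response enlarges the folding capacity of the ER. Each sample gave 1 Affymetrix array, and all levels below are log2 values after RMA. The labels number replicates without naming the animals, so a p-value covers only how far these samples differ from each other, and 7 arrays set the precision.

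In human cells the enzyme exists in a pair of forms, each built around one catalytic subunit. The STT3A form sits at the protein translocon through OSTC and KRTCAP2 and glycosylates chains while they enter the ER. The STT3B form carries an oxidoreductase, TUSC3 or MAGT1, and modifies sites that the first form skipped. RPN1, RPN2, DDOST and DAD1, together with the small subunits OST4 and TMEM258, belong to both forms. Magt1, Ost4 and Tmem258 were read beside the 9 genes.

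The overexpressed gene was checked first. Xbp1 (probe set 10374035) read 9.76, 9.99 and 9.66 in transgenic fat, against 8.90, 9.07, 8.94 and 9.19 in wild type fat. Every transgenic library lay above every wild type library, a 1.71-fold difference (log2 difference 0.77, SE 0.11, limma adjusted p = 0.622). Xbp1 ranked 2 of all probe sets by p and still did not pass adjustment. The probe set cannot separate transgene from endogenous transcript. The adipocyte markers Adipoq and Plin1 were bright in all 7 libraries, with Adipoq between 11.69 and 11.83 in transgenic and between 11.09 and 11.74 in wild type fat. All 8 adipocyte markers had a higher transgenic mean, where 53.6% of all probe sets had one. By limma, 4 were higher at an unadjusted p under 0.05, where 4.82% of probe sets were, and 0 after adjustment. The median log2 difference of the 8 markers was 0.37 over all wild type libraries and 0.03 against wild type replicate 2 alone. Plin1, a lipid droplet protein, differed by 0.49 without overlap, and by 0.12 against that library. Fabp4, whose promoter drives the transgene, differed by 0.22 (SE 0.13) with overlapping groups.

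Libraries of the wild type group differed in what tissue they held. Wild type replicates 1, 3 and 4 carried epididymal and smooth muscle transcripts that the other 4 libraries lacked or had at lower level. Of 7 measured markers of epididymal and tract epithelium, Serpina1f, Spink8 and Defb42 showed this, and all 3 were noticed in these data earlier. Lcn5, Adam7, Rnase10 and Spint4 did not show it, and each had a higher transgenic mean. Over all 7 libraries they read 2.74 to 3.82, 3.04 to 4.69, 1.97 to 2.38 and 2.18 to 2.71. Serpina1f read 2.83 to 3.73 in transgenic fat, against 10.70, 2.74, 10.84 and 11.50 in wild type replicates 1 to 4, and Spink8 read 2.63 to 2.89 in transgenic fat, against 8.82, 2.45, 8.89 and 9.51 in wild type replicates 1 to 4. The mean of 6 smooth muscle markers ran from 6.74 to 7.40 in transgenic fat and was 9.84, 7.31, 9.84 and 10.45 in wild type replicates 1 to 4. The mean of 8 adipocyte markers ran from 11.21 to 11.33 in transgenic fat and was 10.58, 11.29, 10.83 and 10.94 in wild type fat. The mean of 6 macrophage markers ran from 8.43 to 8.74 in transgenic and from 7.99 to 9.63 in wild type fat, and that of 6 B and plasma cell markers from 3.65 to 3.80 and from 3.37 to 3.93, below the array medians of 3.99 to 4.04. The mean of 4 endothelial markers ran from 8.23 to 8.47 in transgenic and from 7.85 to 8.38 in wild type fat, and that of 4 fibroblast and progenitor markers from 9.42 to 9.44 and from 9.26 to 9.78. Values against wild type replicate 2 alone are therefore given beside the main ones. In bulk tissue, fewer cells of a type and less RNA per cell cannot be told apart.

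**Figure D1:**
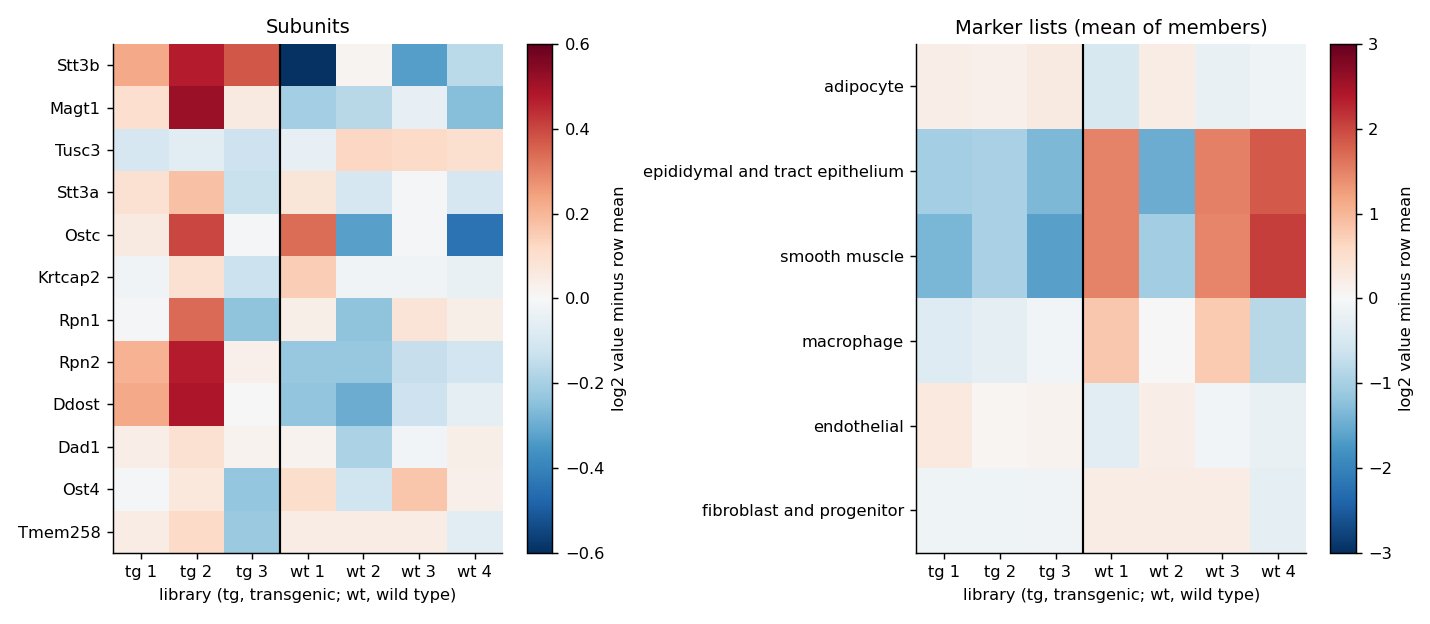
Each row shows log2 values minus the row mean (colour) in 3 transgenic (tg) and 4 wild type (wt) libraries, for the oligosaccharyltransferase subunits on the left and for the means of 6 marker lists on the right, on different colour scales. Transgenic replicate 2 is the reddest library for 7 of the 9 members, and wild type replicates 1, 3 and 4 stand out for tract and smooth muscle markers. The tract mean rises there through Serpina1f, Spink8 and Defb42, which were noticed in these data earlier.

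Promoter sequences of the subunits that carry the comparison are shown because the letters bound by factors of the unfolded protein response are known. RefSeq windows (build GRCm38.p6, 250 bases before to 50 after each annotated start) were found for 7 of the 9 members and, with the other subunits, for 10 genes in 13 windows. The 250 bases before the start of 5 genes are printed 5′ to 3′ on the strand of the gene, with capitals marking CCAAT or CCACG on either strand (ATTGG and CGTGG on the other). Stt3b (chr9:115310469-115310718, minus strand) and Stt3a (chr9:36767623-36767872, minus strand) are the catalytic subunits. Rpn2 (chr2:157278848-157279097, plus strand) and Ddost (chr4:138304488-138304737, plus strand) are the shared subunits, and Magt1 (chrX:106011803-106012052, minus strand) is the oxidoreductase, that had higher values in every transgenic library.
Stt3b: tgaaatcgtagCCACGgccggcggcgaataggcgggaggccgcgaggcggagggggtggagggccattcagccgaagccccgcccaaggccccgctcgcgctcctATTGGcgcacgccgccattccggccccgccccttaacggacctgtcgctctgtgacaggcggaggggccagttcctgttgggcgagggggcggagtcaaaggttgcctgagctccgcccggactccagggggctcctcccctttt
Stt3a: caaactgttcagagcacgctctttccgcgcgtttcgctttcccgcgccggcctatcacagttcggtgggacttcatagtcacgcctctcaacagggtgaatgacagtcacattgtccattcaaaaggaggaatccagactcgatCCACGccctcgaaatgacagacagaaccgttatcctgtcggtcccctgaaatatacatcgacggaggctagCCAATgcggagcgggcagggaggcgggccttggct
Rpn2: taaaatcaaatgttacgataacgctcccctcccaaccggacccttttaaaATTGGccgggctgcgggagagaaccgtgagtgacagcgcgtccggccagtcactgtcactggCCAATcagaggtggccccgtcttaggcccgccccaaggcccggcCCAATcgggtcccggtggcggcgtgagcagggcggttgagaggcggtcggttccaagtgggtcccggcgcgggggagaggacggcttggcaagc
Ddost: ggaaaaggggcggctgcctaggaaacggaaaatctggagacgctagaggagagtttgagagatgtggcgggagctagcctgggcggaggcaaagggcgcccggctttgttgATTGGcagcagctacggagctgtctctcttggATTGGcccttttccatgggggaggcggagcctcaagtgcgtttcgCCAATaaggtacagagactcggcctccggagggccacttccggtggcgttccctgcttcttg
Magt1: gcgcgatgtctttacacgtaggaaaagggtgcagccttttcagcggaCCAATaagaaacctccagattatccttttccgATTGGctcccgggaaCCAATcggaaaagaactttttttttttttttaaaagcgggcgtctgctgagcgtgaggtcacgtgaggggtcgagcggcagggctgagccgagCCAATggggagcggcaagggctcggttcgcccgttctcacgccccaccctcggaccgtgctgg

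The whole windows were searched on both strands for exact letters of 3 elements of the unfolded protein response and for the short boxes CCAAT and CCACG. The ER stress element ERSE, which is CCAAT and CCACG with any 9 bases between them, was in 0 of the 13 subunit windows and in 0.119% of all 32851 windows. The XBP1 element UPRE, TGACGTGG, was likewise in 0 of the 13 and in 0.676% of all windows. ERSE-II, which is ATTGG and CCACG with any 1 base between them, was in 1 of the 13, a Krtcap2 window, and in 0.0365% of all windows. It lies just after the annotated start (chr3:89246481-89246510, plus strand, capitals marking the element), in a gene whose level hardly differed between the genotypes.
Krtcap2: gggacacggATTGGACCACGgacggggcgt

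The short boxes were common. CCACG, which is part of ERSE and of ERSE-II, was in 9 of the 13 subunit windows, against 32.8% of all windows, and CCAAT, also part of both, was in 8 of the 13, against 37.4%. Some genes have more than 1 window, and such windows can overlap. Rpn2 and Magt1, which had higher values in transgenic fat, had CCAAT but no CCACG in their windows. Stt3b and Ddost, which also had higher values, had both boxes. So had Stt3a, Rpn1, Dad1 and Krtcap2, whose groups overlapped. In Ddost, CCACG lay only after the start, outside the printed bases. A match of these letters is a description of the sequence and not a binding site.

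Across the complex only some subunits separated the genotypes, which does not by itself show that the subunits changed unequally. Stt3b, Rpn2 and Ddost had higher values in each transgenic library than in each wild type library, Tusc3 had lower values in each, and Stt3a, Rpn1, Dad1, Ostc and Krtcap2 overlapped between the genotypes. A higher transgenic mean was seen for 7 of the 9 members, where 53.6% of all probe sets tested had one. With limma (Benjamini-Hochberg adjustment over all 21789 probe sets), 0 of the 9 passed an adjusted p of 0.05, and 0% of all probe sets did. At an unadjusted p under 0.05, limma gave 3 members higher, where 4.82% of probe sets were, and 1 lower, where 3.12% were. Groups did not overlap for 3 members higher in transgenic fat, against 3.38% of probe sets, and for 1 lower, against 2.44%. The members' median log2 difference was 0.09, beside 0.01 over all probe sets. These genes were chosen with earlier results of these data known, so the counts describe them and do not test them as a set.

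The share of probe sets that go one way depends on how the arrays are scaled. Array medians ran from 3.99 to 4.01 in transgenic and from 4.03 to 4.04 in wild type fat. After a shift to a common median, limma at an unadjusted p under 0.05 gave 8.72% of probe sets higher and 2.05% lower, and groups did not overlap for 20.1% higher and 1.41% lower. Another round of quantile normalization gave 6.15% and 2.96% by limma, and 9.26% and 3.06% by overlap. The counts of members under these scalings were 3 and 3 higher at an unadjusted p, and 4 and 3 higher without overlap.

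**Figure D2:**
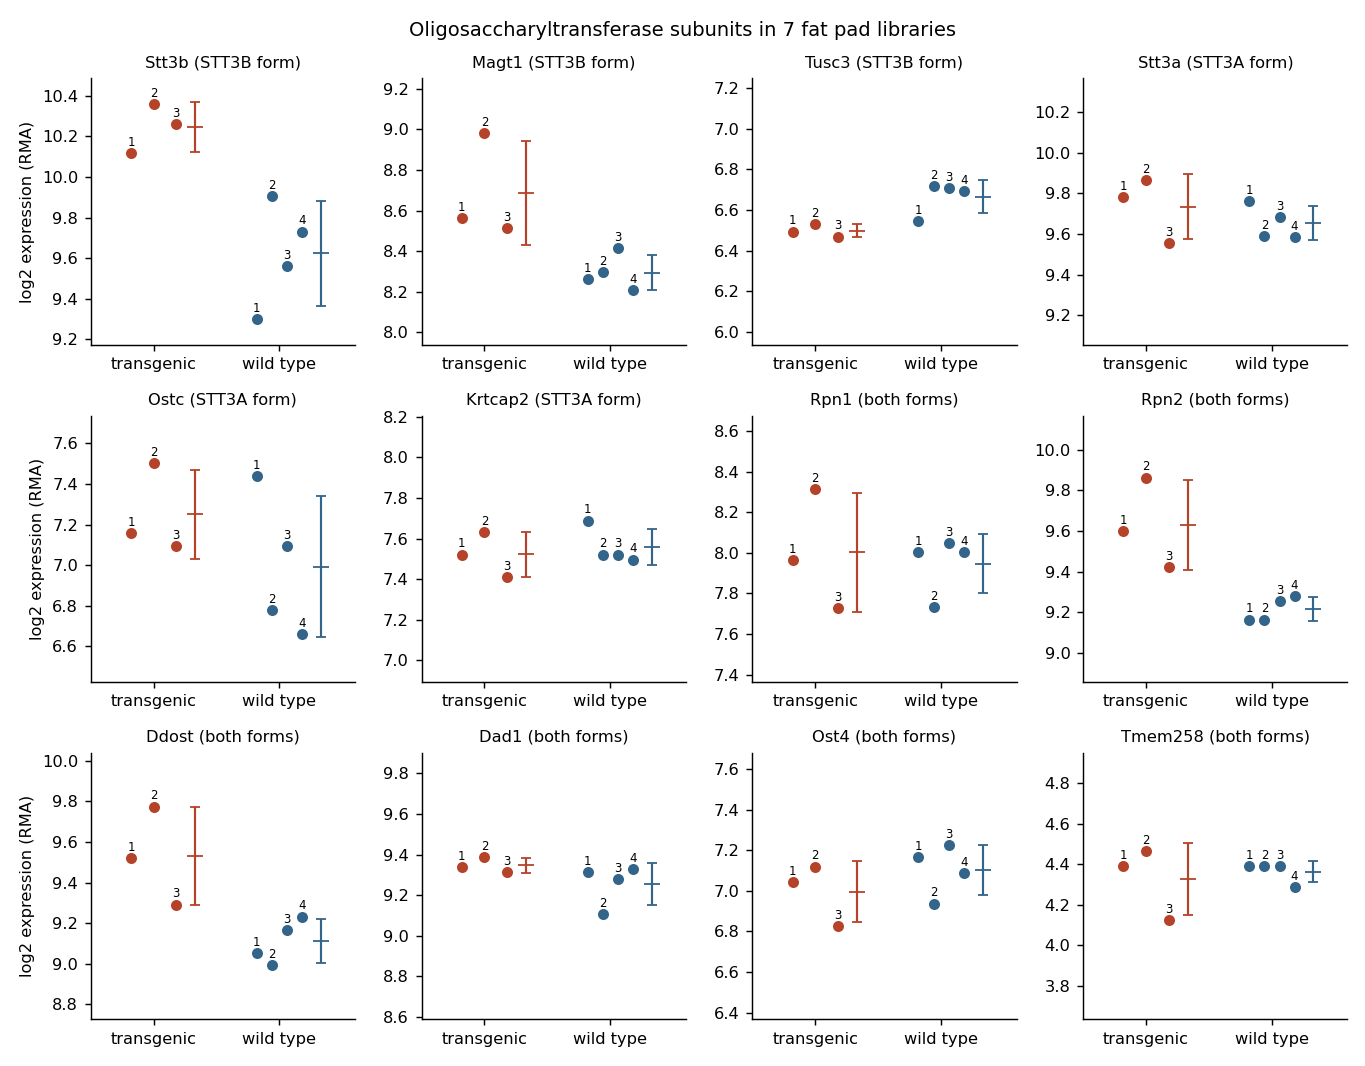
Points are log2 RMA values of each library, numbered by replicate, for transgenic (left) and wild type (right) fat, with the mean and SD as a bar (n = 3 and n = 4). All panels span the same range of log2 units around their own centre. Stt3b, Magt1, Rpn2 and Ddost separate upward in transgenic fat and Tusc3 separates downward by a narrow margin.

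Among the catalytic subunits, the difference between the genotypes was 0.62 for Stt3b and 0.08 for Stt3a. Stt3b (probe set 10597493) read 10.12, 10.36 and 10.26 in transgenic fat, against 9.30, 9.90, 9.56 and 9.73 in wild type fat. No transgenic library reached down to the wild type range, and the highest wild type value was that of replicate 2. The difference was 1.54-fold (log2 difference 0.62, SE 0.15, limma adjusted p = 0.622), placing Stt3b at rank 117 of all probe sets by p. Against wild type replicate 2 alone it was 0.34. Among the wild type libraries Stt3b was lowest in replicate 1, where the adipocyte marker mean was lowest too, and highest in replicate 2, where that mean was highest. The part of tissue makeup in the Stt3b difference was not tested.

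Stt3a (10592217) read 9.78, 9.87 and 9.55 in transgenic fat, against 9.76, 9.59, 9.68 and 9.59 in wild type fat. The transgenic values bracketed the wild type ones, and the log2 difference of 0.08 had a 95% interval from -0.13 to 0.29. A change of the size seen for Stt3b lies outside that interval. The Stt3a difference was 0.01 without transgenic replicate 2 and 0.17 without transgenic replicate 3 (limma unadjusted p = 0.0536).

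Whether the catalytic subunits changed unequally was asked of the log2 ratio of Stt3b over Stt3a within each array. It was 0.33, 0.49 and 0.71 in transgenic fat, against -0.46, 0.31, -0.12 and 0.14 in wild type fat. The groups did not overlap, but only 0.02 log2 units separated transgenic replicate 1 from wild type replicate 2. The mean ratio was 0.51 ± 0.19 (SD, n = 3) in transgenic and -0.03 ± 0.34 (SD, n = 4) in wild type fat, a difference of 0.54. An exact two-sided permutation test over all 35 splits gave p = 0.0571, where the smallest possible is 0.0286. Against wild type replicate 2 alone the difference was 0.20. Since probe sets differ in their response, the ratio does not show which subunit is more abundant.

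The oxidoreductases of the STT3B form went opposite ways. Magt1 (10606301) read 8.56, 8.98 and 8.52 in transgenic fat, against 8.26, 8.30, 8.41 and 8.21 in wild type fat. Its groups did not overlap, and the difference was 1.31-fold (log2 difference 0.39, SE 0.12, limma adjusted p = 0.622). It was 0.39 against wild type replicate 2 alone as well, and 0.24 without transgenic replicate 2.

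Tusc3 (10571371) read 6.49, 6.53 and 6.47 in transgenic fat, against 6.55, 6.72, 6.71 and 6.69 in wild type fat. The transgenic values were all lower, though the nearest pair, transgenic replicate 2 and wild type replicate 1, lay 0.01 log2 units apart, and the groups overlapped after a shift of all arrays to a common median. The log2 difference was -0.17 (SE 0.05, limma adjusted p = 0.622), and -0.13 under that scaling. Its unadjusted p was under 0.05 with all libraries and no longer so without transgenic replicate 3. The ratio of Magt1 over Tusc3 within an array, chosen after the values were seen and not tested, was 2.07, 2.45 and 2.05 in transgenic fat, against 1.72, 1.58, 1.71 and 1.52 in wild type fat. All 3 transgenic libraries had the higher ratio, by 0.56 on average and by 0.61 against wild type replicate 2 alone.

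The subunits that anchor the STT3A form at the translocon showed no separation. Ostc (10502191) read 7.16, 7.50 and 7.09 in transgenic fat, against 7.44, 6.78, 7.09 and 6.66 in wild type fat. Its wild type values spread widely, with replicate 1 close to the highest transgenic library, so the difference of 0.26 had a 95% interval from -0.24 to 0.76. It was 0.41 without wild type replicate 1 (limma unadjusted p = 0.0508), 0.15 without wild type replicate 4, 0.13 without transgenic replicate 2 and 0.47 against wild type replicate 2 alone. Krtcap2 (10493484) read 7.52, 7.63 and 7.41 in transgenic fat, against 7.69, 7.52, 7.52 and 7.50 in wild type fat. Its difference of -0.04 (95% interval -0.21 to 0.14) turned to 0.0055 after the shift to a common median.

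**Figure D3:**
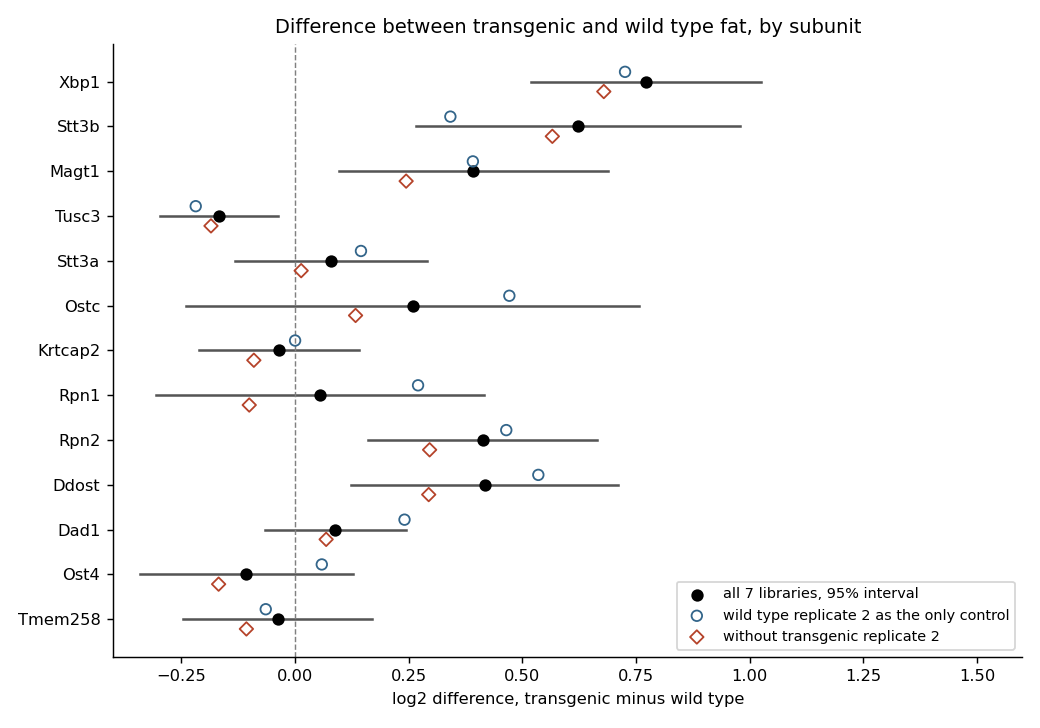
Log2 differences, transgenic minus wild type, for Xbp1 and 12 subunits. Filled points with 95% intervals use all 7 libraries, open circles compare with wild type replicate 2 alone, and open diamonds leave out transgenic replicate 2. Stt3b lies at 0.62 with the open circle at 0.34, while Rpn2 and Ddost lie at 0.41 and 0.42 with open circles at 0.46 and 0.54.

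Of the subunits common to both forms, Rpn2 and Ddost separated the genotypes. Rpn2 (10477946), ribophorin II, read 9.60, 9.86 and 9.42 in transgenic fat, against 9.16, 9.16, 9.25 and 9.28 in wild type fat. The wild type libraries lay close together, with or without tract transcripts, and all 3 transgenic values were above them. The difference was 1.33-fold (log2 difference 0.41, SE 0.10, limma adjusted p = 0.622), rank 171 by p, and 0.46 against wild type replicate 2 alone.

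Ddost (10509542), the subunit also called OST48, read 9.52, 9.77 and 9.29 in transgenic fat, against 9.05, 8.99, 9.17 and 9.23 in wild type fat. Again all transgenic values lay above the wild type ones, transgenic replicate 3 by the narrowest margin. The difference was 1.34-fold (log2 difference 0.42, SE 0.12, limma adjusted p = 0.622), and 0.54 against wild type replicate 2 alone. For both genes the difference was as large against the wild type library without tract transcripts, a lone control, as against all 4. The part of tissue makeup in these differences was not tested. Without transgenic replicate 2 it was 0.30 for Rpn2 and 0.29 for Ddost.

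Rpn2 and Ddost followed each other more closely than any other of the 66 pairs of the 12 subunits. After each gene was centred on its own mean, their values differed by a root mean square of 0.04 log2 units over the 7 libraries. The same distance was 0.20 for Rpn1 and Rpn2 and 0.36 for Stt3a and Stt3b, which ranked 60 of the 66 pairs.

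Rpn1 (10539861), ribophorin I, read 7.96, 8.31 and 7.73 in transgenic fat, against 8.00, 7.73, 8.05 and 8.00 in wild type fat. The groups overlapped throughout, and the difference of 0.05 (95% interval -0.31 to 0.42) turned to -0.10 without transgenic replicate 2 and to -0.02 without wild type replicate 2. The interval includes the difference of Rpn2, so the levels alone do not set the ribophorins apart. The log2 ratio of Rpn2 over Rpn1 was 1.64, 1.55 and 1.69 in transgenic fat, against 1.16, 1.43, 1.21 and 1.28 in wild type fat, and that of Ddost over Rpn1 was 1.56, 1.46 and 1.56 in transgenic fat, against 1.05, 1.26, 1.12 and 1.23 in wild type fat. Both ratios were higher in each transgenic library, by 0.36 on average for each, and by 0.19 and 0.26 against wild type replicate 2 alone. These ratios were chosen after the values were seen and were not tested.

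Dad1 (10419736), a small subunit whose loss causes cell death in a hamster cell line, read 9.34, 9.39 and 9.32 in transgenic fat, against 9.32, 9.11, 9.28 and 9.33 in wild type fat. Wild type replicate 2 was the low library and the rest lay together, so the difference was 0.09 (95% interval -0.07 to 0.24) over all 4 wild type libraries, 0.24 against replicate 2 alone and 0.04 without it. The small subunits Ost4 (10529028) and Tmem258 (10461454) differed by -0.11 and -0.04. Ost4 ran from 6.83 to 7.12 in transgenic and from 6.94 to 7.22 in wild type fat, and Tmem258 from 4.12 to 4.46 and from 4.29 to 4.39, close to the array median. Both signs turned in at least 1 alternative, Ost4 to 0.06 against wild type replicate 2 alone and Tmem258 to 0.0012 and 0.0025 under renewed quantile normalization and the common median.

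**Figure D4:**
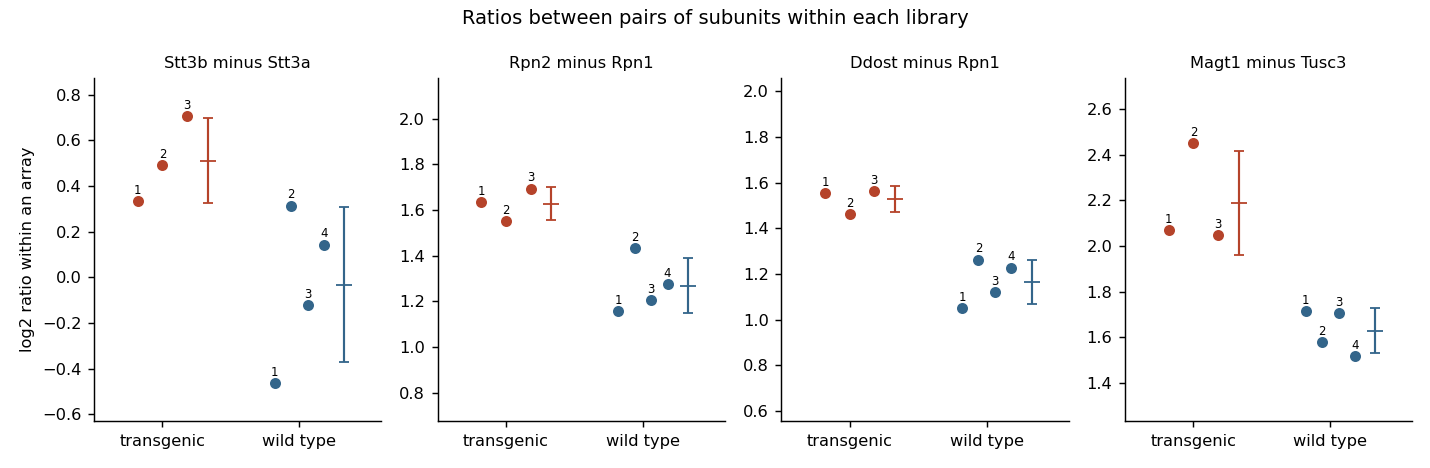
Log2 ratios between pairs of subunits within each library, numbered by replicate, for transgenic (left) and wild type (right) fat, with mean and SD as a bar (n = 3 and n = 4). Every panel spans 1.5 log2 units. In each panel the 3 transgenic libraries lie above the 4 wild type libraries, by only 0.02 for Stt3b over Stt3a.

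Transgenic replicate 2 was the highest of the transgenic libraries for 12 of 12 subunits and the highest of all 7 libraries for 7 of the 9 members. Transgenic replicate 3 was the lowest of all libraries for 4 members. The members' median difference was 0.07 without transgenic replicate 2 and 0.19 without transgenic replicate 3. Without replicate 3, 5 members were higher without overlap, where 6.78% of probe sets were, and dropping a library can only raise such a count. Set against wild type replicate 2 alone, 5 members, Stt3b, Rpn2, Ddost, Ostc and Dad1, were higher in all 3 transgenic libraries, as were 24% of all probe sets, and the median difference was 0.27. In that fit, which assumes that the lone control varies like the transgenic libraries, limma gave an unadjusted p under 0.05 for 1 member higher (Dad1), where 6.97% of probe sets were, and 1 lower (Tusc3), where 5.74% were, but not for Stt3b, Rpn2 or Ddost, and none passed after adjustment.

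Partners that act before, beside and after the enzyme gave the setting for these sizes. Of 22 measured genes that assemble the lipid-linked sugar precursor, 16 had a higher transgenic mean, where 53.6% of all probe sets had one. At an unadjusted p under 0.05, limma gave 5 higher, where 4.82% of probe sets were, and 0 lower, where 3.12% were. After adjustment 0 passed. The list's median log2 difference was 0.13, beside 0.01 over all probe sets. Dpagt1, which starts the precursor, read 6.71, 7.12 and 6.66 in transgenic fat, against 6.31, 6.36, 6.38 and 6.18 in wild type fat, a log2 difference of 0.52. Mpdu1, needed for the use of dolichol-linked mannose, and the dolichyl pyrophosphatase Dolpp1 differed by 0.35 and 0.23, also without overlap.

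At the translocon, 12 of 14 measured genes had a higher transgenic mean, against 53.6% of all probe sets, with a median difference of 0.15. By limma, 3 were higher at an unadjusted p under 0.05, where 4.82% of probe sets were, and 0 after adjustment. Those 3 were Sec63, which recruits BiP to the channel, at 0.33, the TRAP subunit Ssr3 at 0.40 and the signal peptidase subunit Spcs2 at 0.37. Without transgenic replicate 2 the list's median was 0.05 and Spcs2 differed by 0.21, and against wild type replicate 2 alone Sec63 differed by 0.16. Downstream of the enzyme, in glucose trimming and the calnexin cycle, 8 of 9 genes had a higher transgenic mean, against 53.6% of all probe sets. By limma, 0 of these genes reached an unadjusted p under 0.05, and the median difference was 0.10. The smallest p of that list belonged to Ngly1 (0.30), a cytosolic enzyme that removes N-glycans, the lectin Mlec (0.29) and the disulfide isomerase Pdia3 (0.25), with overlapping groups. Without transgenic replicate 2 the difference was 0.14 for Mlec and 0.11 for Pdia3, and against wild type replicate 2 alone it was 0.11 for Ngly1.

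ER chaperones differed by more. All 11 measured had a higher transgenic mean, against 53.6% of all probe sets. By limma, 9 were higher at an unadjusted p under 0.05, where 4.82% of probe sets were, and 0 after adjustment. The list's median log2 difference was 0.79, with 0.55 without transgenic replicate 2 and 0.93 against wild type replicate 2 alone. Pdia6, Hspa5 (BiP) and Dnajc3 differed by 1.03, 0.65 and 0.75, against 0.62 for Stt3b, the largest difference among the oligosaccharyltransferase members. All comparisons share the same 7 libraries.

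**Figure D5:**
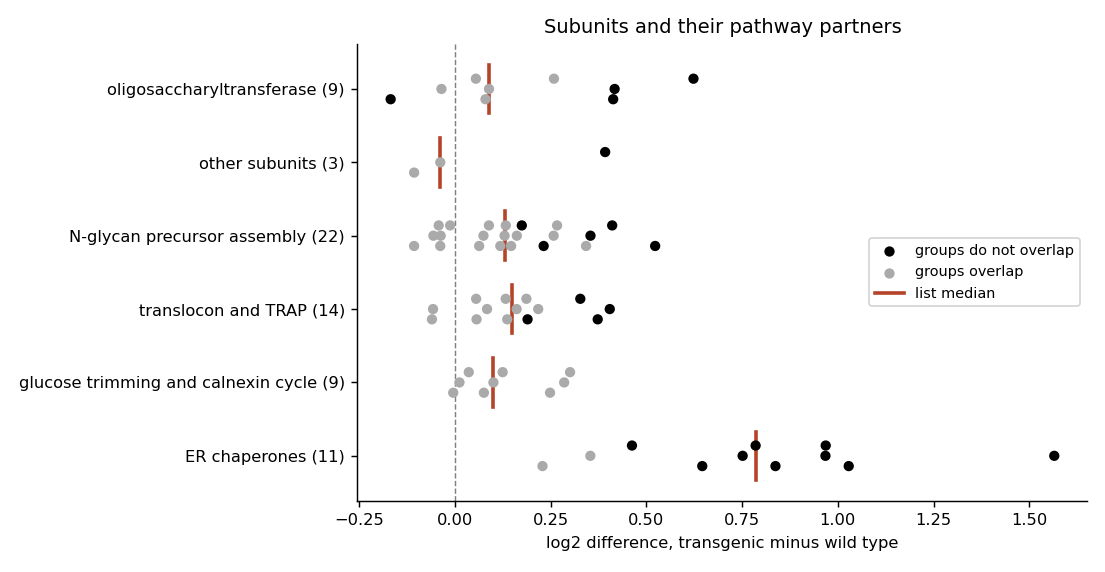
Each point is the log2 difference, transgenic minus wild type, of 1 gene, with the number measured in parentheses. Black points are genes whose groups do not overlap and red bars are list medians, which are 0.09 for the 9 members and 0.79 for ER chaperones.

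The genes whose pattern over the 7 libraries was nearest to that of Stt3b were not subunits of the enzyme. Nearness was the root mean square distance between centred log2 values, over 3325 genes with a mean level of at least 7. The nearest 5 were Steap4, a metalloreductase of fat, at 0.07, then Slc7a10, an amino acid transporter, Mmut, methylmalonyl-CoA mutase, Ppp2r5a, a regulatory subunit of protein phosphatase 2A, and Pxmp4, a peroxisomal membrane protein, at 0.08 to 0.09. Steap4 read 10.58, 10.71 and 10.67 in transgenic fat, against 9.59, 10.32, 9.83 and 10.16 in wild type fat, with replicate 1 the lowest and replicate 2 the highest of the wild type libraries, as for Stt3b. Among the other subunits Rpn2 was nearest, at a distance of 0.22 and rank 415. These distances describe 7 libraries that share the tissue differences given above.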

How the data were processed

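The authors deposited log2 expression values, 1 column per array, made with RMA (background correction, quantile normalization and probe set summary) per the submitters' processing notes. The sources used here do not give a version, probe set definition or genome build. The table holds 35556 probe sets, of which 21789 had 1 gene symbol in the platform annotation, 1621 several and 12146 none or no entry, and 21698 of the 21789 matched RefSeq by Entrez identifier. Genes with several rows were read from the row with the highest mean. No filter on low values was applied.

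Transgenic minus wild type differences were fitted in R 4.3.3 with lmFit and eBayes of limma 3.58.1, with genotype as the only term and two-sided p-values adjusted by Benjamini-Hochberg over all 21789 probe sets. The fit was tested on simulated data. Intervals are 95% from the moderated fit. Folds are log2 differences on a linear scale. No array repeated another, and at most 15.4% of values were equal in any pair. Named genes were all subunits, Xbp1, Fabp4, the first markers of a list, the 3 smallest p of each partner list and the 5 genes nearest to Stt3b, leaving out predicted genes. The members and lists were chosen with earlier results of these data known. Sec61g and Crisp1 of those lists had no row with 1 symbol and were not analysed here. Alternatives were a replicate block, other scalings, filters, moderation and array weights, leaving out each library, wild type replicate 2 alone as control, and a threshold of 0.1. Promoter letters were read from RefSeq windows with Python 3.11.15.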

Additional observations from a re-analysis of the deposited data

Results flagged for a closer look

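Of 30 values examined for a sample far from the other wild type libraries (subunits, ratios and named partners), 4 had one. Chance flags about 1 in 20 such groups where values are not tied, and Krtcap2 and Tmem258 each had equal values among their wild type libraries. Rpn1 was low in wild type replicate 2, at 7.73. Krtcap2 was high in wild type replicate 1, at 7.69. Tusc3 was low in wild type replicate 1, at 6.55, which is the library nearest to the transgenic values. Tmem258 was low in wild type replicate 4, at 4.29, where the other wild type libraries read 4.39.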

How the results depend on the processing

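Of 451 pairs of a result and an alternative, 426 kept direction and side of the threshold, or stayed within the spread between replicates. A count was also taken as kept when it changed by a small factor. Some alternatives, such as the filters and the moderation, changed p-values but no log2 difference. No subunit passed an adjusted p of 0.05 in any alternative, so for subunits only the direction could change. The replicate block gave 0 members lower at an unadjusted p under 0.05 and changed no adjusted call. Its log2 difference was 0.66 for Stt3b and 0.60 for the ratio of Stt3b over Stt3a (exact p = 0.25, the smallest 3 pairs allow). Same-numbered libraries deviated with correlations of -0.14, -0.09 and 0.06, so the numbers were not taken as pairs of samples. The common median gave 0 members lower at an unadjusted p and 0 without overlap, and turned Krtcap2 to 0.0055. It turned Tmem258, and with it the median of the other subunits, to 0.0025, and renewed quantile normalization turned both to 0.0012. With wild type replicate 2 alone as control, 1 member was higher at an unadjusted p and 5 without overlap, the members' median was 0.27, Krtcap2 was at 0.000345, and Ost4, now the median of the other subunits, at 0.0591. These signs belong to differences near 0 and the causes were not tested. Leaving out single libraries gave -0.0904 to 0.0197 for Krtcap2, -0.10 to 0.19 for Rpn1, -0.11 to 0.0624 for Tmem258 and for the median of the other subunits, and 0.0336 to 0.15 for the median of glucose trimming and the calnexin cycle. It gave 0 to 1 members lower at an unadjusted p, 3 to 5 higher without overlap, and over all probe sets 0 to 7 called higher and 0 to 84 lower, calls made only without wild type replicate 2 and with no subunit among them. The exact test of the ratio of Stt3b over Stt3a cannot pass 0.05 with a library left out. Averaging several rows of a gene was not run. Each member has 1 row, but the partners Sec61b, Mlec, Dnajc3 and Pdia4 have more, and only the row with the highest mean was read.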
